A study of Mus musculus with 4 samples.

Results

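Translation initiation factors, the proteins that bring the initiator transfer RNA, the small ribosomal subunit and the messenger RNA together, were examined in CD8 T cells taken from mouse liver tumours (hepatocellular carcinoma). The 54 genes are the protein-coding genes of the deposited table whose symbol starts with Eif and a factor number from 1 to 6, out of 14934 genes in all and 13118 protein-coding genes. All 54 passed the filter on low counts, which kept 11563 genes. By factor number they comprise 5 genes of eIF1, 15 of eIF2, 14 of eIF3, 15 of eIF4, 4 of eIF5 and 1 of eIF6. The symbol rule also takes in regulators, namely the 4 kinases that phosphorylate eIF2 and the 3 eIF4E-binding proteins.

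The tumour-infiltrating CD8 T cells came from wild-type mice and had been separated by flow cytometry on the surface receptor JAML, the junctional adhesion molecule-like protein. There were 2 libraries of JAML-positive cells and 2 of JAML-negative cells, and the labels call the JAML-negative ones controls. Each pair is lettered A and B, and values of a group run A, then B. No strain, age, tumour model or treatment is stated for either group, nor whether A and B are separate animals, so the p-values cover the spread among these 4 libraries alone, and that spread may be technical. Levels are counts per 1000000 (CPM) on the scale of trimmed means (TMM), and fold changes are JAML-positive over JAML-negative on the log2 scale.

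Initiation starts when eIF2 loads the initiator transfer RNA with the help of GTP and joins the small subunit together with eIF1, eIF1A, eIF3 and eIF5. The exchange factor eIF2B recharges eIF2 with GTP, and kinases that sense stress stop that exchange by phosphorylating the alpha subunit of eIF2. In parallel eIF4F, made of the cap-binding protein eIF4E, the scaffold eIF4G and the helicase eIF4A, prepares the messenger RNA, and binding proteins can hold eIF4E back. T cells raise their rate of protein synthesis on activation, and initiation is a main point at which that rate is set.

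The libraries held 27530187 to 30569728 counts. Transcripts of the sort marker Jaml were at 138 and 147 CPM in JAML-positive libraries, against 131 and 117 CPM in JAML-negative libraries (log2 fold change 0.20, SE 0.26, edgeR adjusted p = 0.881). The difference was smaller than its error, so the transcript did not check the sort. Of the CD8 T cell markers listed, 5 of 6 were in the table, with a summed level of 3346 and 2886 CPM in JAML-positive and 2856 and 2895 CPM in JAML-negative libraries. JAML-positive replicate A stood apart, with 12.57% of its counts in 87 cytosolic ribosomal protein genes, against 7.73% in JAML-positive replicate B and 8.64% and 8.55% in JAML-negative libraries. Dendritic cell and MHC class II markers summed to 432.9 and 249.9 CPM in JAML-positive and 111.4 and 83.7 CPM in JAML-negative libraries, with values higher in JAML-positive cells for 9 of the 9 markers tested of 12 listed. Plasmacytoid dendritic cell markers, 6 of 6 higher, summed to 276 and 258 CPM in JAML-positive and 99.6 and 112 CPM in JAML-negative libraries, where Ly6d was at 0. Macrophage markers, 4 of 6 higher, summed to 188 and 148 CPM in JAML-positive and 73.2 and 71.3 CPM in JAML-negative libraries. The 5 hepatocyte markers, 1 of them tested, summed to 14.6 and 14.9 CPM in JAML-positive libraries, where Apoa1 and Ttr were at 0, and to 23.9 and 4.36 CPM in JAML-negative libraries. The 6 markers of cycling cells, 6 of 6 higher, summed to 2103 and 2436 CPM in JAML-positive and 1549.7 and 1612 CPM in JAML-negative libraries. Initiation factors are made in every cell type, the part of these other cells in the values that follow was not tested, and fewer cells of a type and less RNA per cell cannot be told apart in such libraries.

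No single gene of the family was called as different by edgeR, and the family's share of the raw counts lay slightly higher in JAML-positive libraries. Together the 54 genes held 1.32% and 1.32% of the counts in JAML-positive libraries, against 1.20% and 1.28% in JAML-negative libraries. On the TMM scale they summed to 13833 and 12910 CPM in JAML-positive and 11837 and 12793 CPM in JAML-negative libraries. Replicate B of each group thus lay close together, and the replicates A lay farther apart. In edgeR's quasi-likelihood test with Benjamini-Hochberg adjustment over all genes 0 of the 54 passed, with adjusted p between 0.609 and 0.997, where 0% of all tested genes passed. At an unadjusted p under 0.05 there were 4 genes, Eif2b2, Eif2b5, Eif4h and Eif5a, where 7.65% of all tested genes reached that level. All 4 were higher in JAML-positive cells and 0 lower, against 4.32% and 3.34% of all tested genes. Limma-voom called 0 genes of the family, with 5 at an unadjusted p under 0.05, against 0% and 5.92% of all tested genes. DESeq2 called 3, Eif2b2, Eif2b5 and Eif4h, where it called 7.65% of all tested genes.

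Values were higher in JAML-positive cells for 35 of the 54 genes and lower for 19, and the log2 fold change was above 0 for 50.7% of all tested genes. The median log2 fold change was 0.18 for the family and 0.01 for all tested genes. Both JAML-positive values exceeded both JAML-negative values for 15 genes, against a share of 20.3% over all tested genes, and were below both for 8, against 18.2%. The groups overlapped for the other 31, and did not overlap for 38.5% of all tested genes. Among tested genes with a mean of at least 30 CPM, a level that 48 of the 54 reach, both JAML-positive values were the higher ones for 19.5% and the log2 fold change was above 0 for 49.2%. The median of the family moved with the library that stood apart. It was 0.01 without JAML-positive replicate A (all tested genes -0.01) and 0.25 without JAML-positive replicate B. Without JAML-positive replicate A the median was 0.22 for eIF2 and 0.20 for eIF4, against 0.23 and 0.18 with all libraries. For eIF3 it was -0.04 against 0.22, for eIF1 -0.06 against -0.03 and for eIF5 -0.09 against -0.07. The single eIF6 gene was at -0.81 against -0.32. Fold changes were lower for longer transcripts (Spearman's rho -0.17 across 11113 tested genes and -0.25 across the 54, which share libraries and are not independent). With the trends in length and GC content removed together the median was 0.05, and the part of each was not tested.

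**Figure D1:**
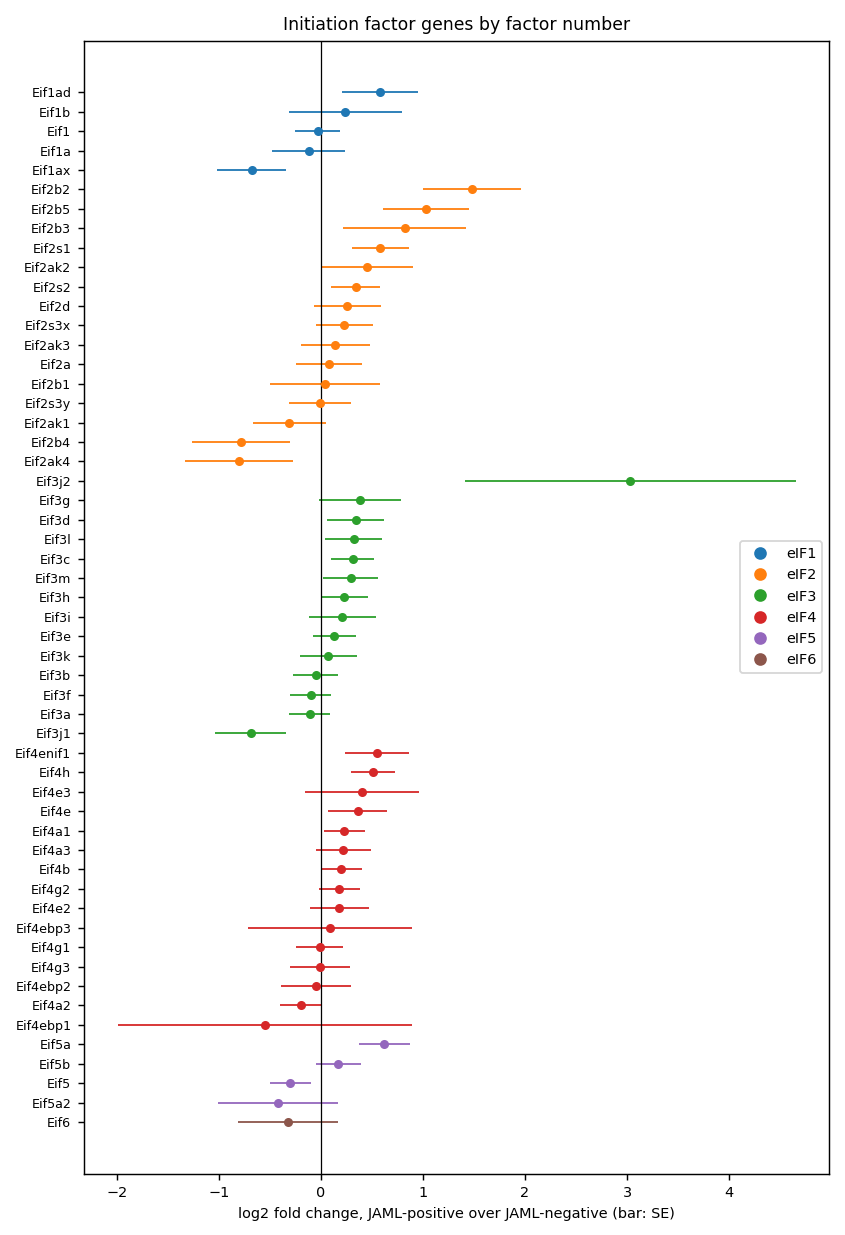
Log2 fold change of each of the 54 initiation factor genes (horizontal axis, JAML-positive over JAML-negative, bars are SE from edgeR), with genes grouped and coloured by factor number. Eif2b2 at 1.48 and Eif2b5 at 1.03 lie to the right of 0 with Eif5a and Eif4h, and the widest bars belong to Eif3j2 and Eif4ebp1.

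The family spans a wide range of transcript levels. Per kilobase of transcript, averaged over the 4 libraries, Eif1, which keeps the scanning ribosome open, had the highest level at 570.1 CPM per kilobase, followed by the helicase gene Eif4a1 at 427.1 and by Eif5a, which helps the ribosome through difficult peptide bonds, at 368.4. The lowest levels per kilobase were those of Eif4ebp1 at 2.24, Eif3j2 at 2.84, Eif5a2 at 4.41 and the kinase gene Eif2ak4 at 5.71. The median gene of the family was at 125 CPM, against 29.8 CPM for the tested genes, and the median SE of a log2 fold change was 0.30 in the family and 0.56 over the tested genes.

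Upstream sequences are shown for the eIF2B subunit genes Eif2b2 and Eif2b5 and for Eif4h, which DESeq2 called, and for the helicase pair Eif4a1 and Eif4a2, which lay on opposite sides. Each is the 250 bases before a transcription start listed by RefSeq on GRCm38.p6. For Eif2b5 that start lies within the gene's annotated range, so the end of its window overlaps the start of the gene, while the other windows end where the gene starts. They are printed with capitals marking an E-box (CACGTG, the element bound by MYC with MAX) or a CCAAT box (CCAAT, read on either strand and so also ATTGG).
Eif2b2, chr12:85219231-85219480, plus strand: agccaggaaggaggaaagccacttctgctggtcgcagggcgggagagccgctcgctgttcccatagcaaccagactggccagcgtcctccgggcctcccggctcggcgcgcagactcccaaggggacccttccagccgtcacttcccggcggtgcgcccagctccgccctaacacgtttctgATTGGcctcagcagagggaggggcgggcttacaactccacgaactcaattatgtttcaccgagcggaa
Eif2b5, chr16:20498567-20498816, plus strand: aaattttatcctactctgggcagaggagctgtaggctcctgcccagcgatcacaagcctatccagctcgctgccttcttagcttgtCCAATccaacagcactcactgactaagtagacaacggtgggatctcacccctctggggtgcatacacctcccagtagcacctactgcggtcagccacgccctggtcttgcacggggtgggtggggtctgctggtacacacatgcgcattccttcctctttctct
Eif4h, chr5:134639410-134639659, minus strand: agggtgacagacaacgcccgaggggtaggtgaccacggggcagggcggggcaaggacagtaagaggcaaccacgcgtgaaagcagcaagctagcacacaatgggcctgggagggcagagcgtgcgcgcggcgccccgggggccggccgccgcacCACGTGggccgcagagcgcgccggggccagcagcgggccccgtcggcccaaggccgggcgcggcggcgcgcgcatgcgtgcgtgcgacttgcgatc
Eif4a1, chr11:69672424-69672673, minus strand: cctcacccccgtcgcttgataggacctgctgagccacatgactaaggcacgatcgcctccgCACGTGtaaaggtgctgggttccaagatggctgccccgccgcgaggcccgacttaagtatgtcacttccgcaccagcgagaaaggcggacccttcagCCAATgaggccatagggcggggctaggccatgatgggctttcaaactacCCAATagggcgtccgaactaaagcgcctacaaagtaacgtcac
Eif4a2, chr16:23107218-23107467, plus strand: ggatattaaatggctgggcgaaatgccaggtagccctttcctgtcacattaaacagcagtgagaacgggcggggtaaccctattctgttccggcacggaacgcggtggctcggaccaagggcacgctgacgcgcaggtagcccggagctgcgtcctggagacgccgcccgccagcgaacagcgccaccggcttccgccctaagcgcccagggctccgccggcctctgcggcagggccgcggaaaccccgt
The upstream windows of Eif2b2 and Eif2b5 each held 1 CCAAT box and 0 E-boxes, that of Eif4h held 1 E-box beginning 96 bases before the start, and that of Eif4a1 held 1 E-box at 189 bases and 2 CCAAT boxes at 92 and 43 bases. Neither motif was found in the window of Eif4a2. Windows were listed for 43 of the 54 genes, and 9 of these (20.9%) had an E-box in at least 1 window (Eif1b, Eif3f, Eif3k, Eif4a1, Eif4e, Eif4g1, Eif4h, Eif5a and Eif5a2), against 984 of 10467 protein-coding genes of the table (9.4%). A CCAAT box was found for 14 of the 43 (32.6%), against 4274 of the 10467 (40.8%). Some genes have several starts, such as Eif5a with 6, which gives them more windows to hold a match.

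The subunits of eIF2B, the exchange factor that recharges eIF2, lay on both sides of 0. They included 2 of the 3 genes of the family that DESeq2 called, where it called 7.65% of all tested genes. The beta and epsilon subunit genes Eif2b2 and Eif2b5 were at higher levels in JAML-positive cells, the gamma subunit gene Eif2b3 leaned the same way, the delta subunit gene Eif2b4 lay lower, and the alpha subunit gene Eif2b1 varied within the groups. Genes beyond those fixed by rule, here Eif2b1 and Eif2b3 and later Eif1a, Eif1ad, Eif2a, Eif2d, Eif2s2, the kinase genes other than Eif2ak4, eIF3 genes other than Eif3a, Eif3e and the j genes, Eif4b, Eif5b and the genes of other lists, were named after their values were seen. Of the 5 subunit genes 0 passed the test over all genes. Both JAML-positive values exceeded both JAML-negative values for 3 of them and were below both for 1, against 20.3% and 18.2% of all tested genes.

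Eif2b2 (chromosome 12, 85219481 to 85226628, GRCm38.p6) was at 62.9 and 51.7 CPM in JAML-positive libraries, against 16.4 and 24.6 CPM in JAML-negative libraries. The lower JAML-positive library was thus above the higher JAML-negative one by more than the distance between replicates. Its mean was 57.3 ± 7.87 CPM in JAML-positive and 20.5 ± 5.75 CPM in JAML-negative cells (SD, n = 2 each), a log2 fold change of 1.48 (SE 0.48, 95% interval 0.43 to 2.53, edgeR adjusted p = 0.609, DESeq2 adjusted p = 0.0025). With a library left out the log2 fold change ranged between 1.22 and 1.81. Eif2b2 encodes a subunit of the regulatory core of the complex.

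Eif2b5 (chromosome 16, 20498795 to 20509325), the catalytic subunit, had 58.2 and 73.0 CPM in JAML-positive and 37.7 and 27.0 CPM in JAML-negative libraries. Again the groups did not overlap. That gave a log2 fold change of 1.03 (SE 0.42, 95% interval 0.11 to 1.94, edgeR adjusted p = 0.609, DESeq2 adjusted p = 0.0317), and 0.81 to 1.28 with a library left out. Eif2b3 was at 28.8 and 27.0 CPM in JAML-positive and 15.6 and 15.9 CPM in JAML-negative libraries, with the replicates of each group close together (log2 fold change 0.82, SE 0.60, edgeR adjusted p = 0.744).

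Eif2b4 lay the other way, at 34.7 and 23.8 CPM in JAML-positive and 59.7 and 39.4 CPM in JAML-negative libraries (log2 fold change -0.78, SE 0.48, edgeR adjusted p = 0.671). Eif2b1 was at 50.9 and 22.6 CPM in JAML-positive and 44.2 and 25.8 CPM in JAML-negative libraries, so that both replicates A were high and both replicates B low. Its log2 fold change was 0.04 (SE 0.54). Summed over the 5 genes the level was 235.4 and 198.1 CPM in JAML-positive and 173.5 and 132.6 CPM in JAML-negative libraries. Neither Eif2b2 nor Eif2b5 had a stretch of 50 nucleotides shared with another annotated gene.

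**Figure D2:**
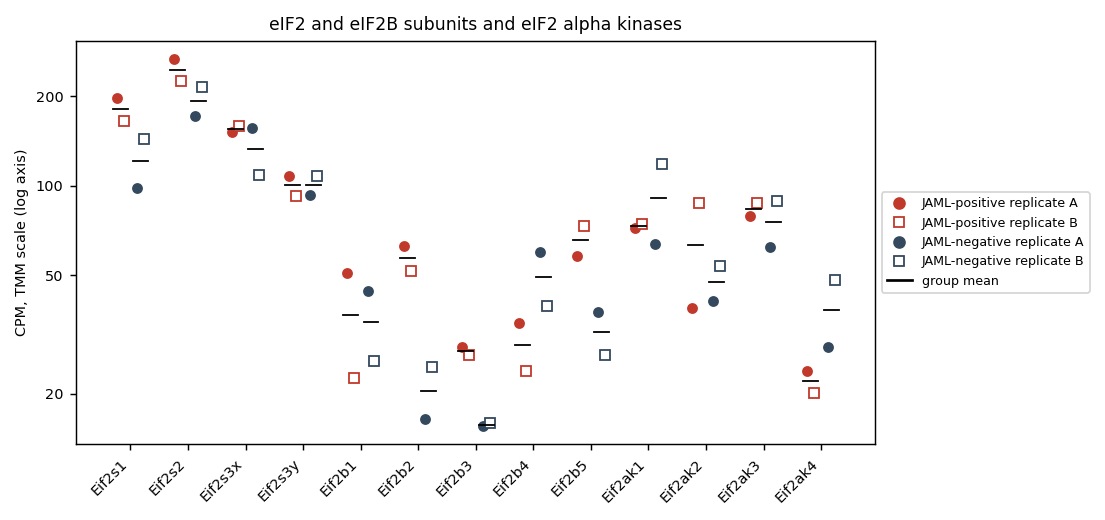
Level of the eIF2 subunit, eIF2B subunit and eIF2 kinase genes in each library (vertical axis, CPM on a log scale), with JAML-positive libraries in red on the left of each gene and JAML-negative libraries in dark blue on the right. Filled circles are replicate A, open squares replicate B and black lines group means. Eif2s1, Eif2s2, Eif2b2, Eif2b3 and Eif2b5 are separated upwards in JAML-positive libraries, and Eif2b4 and Eif2ak4 downwards. Of all tested genes 20.3% are separated upwards and 18.2% downwards.

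Of the genes of eIF2 itself, the carrier of the initiator transfer RNA, 0 passed the test. The groups of the alpha and beta subunit genes did not overlap, and those of the gamma subunit genes did. Over all tested genes the groups did not overlap for 38.5%. Eif2s1, whose product is the alpha subunit that the kinases phosphorylate, was at 197 and 165 CPM in JAML-positive and 98.3 and 144 CPM in JAML-negative libraries (log2 fold change 0.58, SE 0.28, edgeR adjusted p = 0.609). Its JAML-negative replicates were farther apart than its JAML-positive ones, and without JAML-negative replicate A the log2 fold change was 0.33. Eif2s2, which encodes the beta subunit, had 267 and 224 CPM in JAML-positive and 172 and 215 CPM in JAML-negative libraries (0.34, SE 0.24, edgeR adjusted p = 0.733). JAML-positive replicate B and JAML-negative replicate B lay close to each other, and 27.8% of the Eif2s2 transcript matches a processed pseudogene.

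The gamma subunit is encoded by Eif2s3x on the X chromosome and Eif2s3y on the Y chromosome in mice. Eif2s3x was at 151 and 159 CPM in JAML-positive and 157 and 108 CPM in JAML-negative libraries (log2 fold change 0.23, SE 0.28). Eif2s3y was at 108 and 92.5 CPM in JAML-positive and 92.9 and 108 CPM in JAML-negative libraries (-0.01, SE 0.30). Reads of Eif2s3x are uncertain, since 36.2% of its transcript matches a processed pseudogene. Eif2a and Eif2d encode proteins that can deliver the initiator transfer RNA without eIF2, and both had overlapping groups (log2 fold changes 0.08, SE 0.32, and 0.26, SE 0.33).

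The 4 kinase genes were 2 higher and 2 lower, and 0 passed. Eif2ak4, which encodes GCN2, the sensor of uncharged transfer RNA, was at 23.9 and 20.2 CPM in JAML-positive and 28.8 and 48.1 CPM in JAML-negative libraries. The groups did not overlap, but the JAML-negative replicates differed from each other by more than the groups' nearest libraries did (log2 fold change -0.80, SE 0.53, edgeR adjusted p = 0.709). The other kinase genes, Eif2ak1 for the haem-regulated kinase, Eif2ak2 for the double-stranded RNA sensor PKR and Eif2ak3 for PERK of the endoplasmic reticulum, had overlapping groups, with fitted log2 changes of -0.31 (SE 0.36), 0.45 (SE 0.45) and 0.14 (SE 0.34) in that order. Eif2ak2, an interferon-inducible gene, was at 39.0 and 87.8 CPM in JAML-positive libraries, against 41.1 and 53.7 CPM in JAML-negative libraries, so 1 library stood above the other 3.

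Targets of the stress response that follows eIF2 phosphorylation lay on both sides of 0. Of 14 listed genes 12 were tested, 6 with higher and 6 with lower values, 0 past the threshold in either direction, and their median log2 fold change was -0.06. The cystine transporter gene Slc7a11 was at 7.26 and 3.58 CPM in JAML-positive libraries and without counts in both JAML-negative libraries, and it passed in DESeq2 (adjusted p = 0.00356) but not in edgeR (adjusted p = 0.609). Atf4, the transcription factor whose translation increases when eIF2 is phosphorylated, was at 500.1 and 357 CPM in JAML-positive and 551 and 497 CPM in JAML-negative libraries (log2 fold change -0.29, SE 0.22). The groups of Atf4 overlapped by a narrow margin. Ppp1r15a, which encodes the phosphatase subunit that reverses the phosphorylation, was at 605 and 598 CPM in JAML-positive and 667 and 678 CPM in JAML-negative libraries (-0.16, SE 0.19).

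The helicase and cap-binding complex eIF4F showed small differences, the clearest of them in the cofactor Eif4h. Of the 15 eIF4 genes 10 had higher and 5 lower values in JAML-positive cells, with a median log2 fold change of 0.18 and 0 genes past the threshold. Both JAML-positive values exceeded both JAML-negative values for 5 of the 15, against 20.3% of all tested genes, and were below both for 1, Eif4a2, against 18.2%.

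Eif4h (chromosome 5, 134619872 to 134639409), whose product stimulates the helicase eIF4A, was at 359 and 355 CPM in JAML-positive and 268 and 233 CPM in JAML-negative libraries. The JAML-positive replicates were almost equal and both lay above the JAML-negative ones. Its mean was 357 ± 2.68 CPM in JAML-positive and 251 ± 24.6 CPM in JAML-negative cells (SD, n = 2 each), and the log2 fold change was 0.51 (SE 0.22, 95% interval 0.04 to 0.98, edgeR adjusted p = 0.609, DESeq2 adjusted p = 0.0165), with 0.42 to 0.61 when a library was left out. Eif4b, the related cofactor, was at 882 and 832 CPM in JAML-positive and 802 and 691 CPM in JAML-negative libraries (0.20, SE 0.20, edgeR adjusted p = 0.826).

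The helicase genes Eif4a1 and Eif4a2 encode close relatives that can each serve in eIF4F, and they lay on opposite sides of 0. Eif4a1 (chromosome 11, 69666936 to 69672423) was at 834 and 799.8 CPM in JAML-positive and 623 and 774 CPM in JAML-negative libraries (log2 fold change 0.23, SE 0.20, edgeR adjusted p = 0.804). Eif4a2 (chromosome 16, 23107468 to 23114132) was at 802.5 and 812 CPM in JAML-positive and 844 and 1009.5 CPM in JAML-negative libraries (-0.20, SE 0.20, edgeR adjusted p = 0.826). The groups of neither gene overlapped, and neither difference exceeded its error by much.

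The ratio of Eif4a1 to Eif4a2 counts was 1.04 and 0.985 in JAML-positive libraries, against 0.738 and 0.767 in JAML-negative libraries. Replicates of a group were close together and the groups apart, although an exact permutation test of 2 against 2 libraries cannot give a two-sided p below 0.333. The exon junction helicase gene Eif4a3 had overlapping groups, at 172.5 and 136 CPM in JAML-positive and 121 and 142 CPM in JAML-negative libraries. For Eif4a1 65.3% of the transcript occurs in another gene of the annotation, mostly a processed pseudogene, so its counts are uncertain. With length and GC trends removed the log2 fold change was 0.03 for Eif4a1 and -0.30 for Eif4a2.

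**Figure D3:**
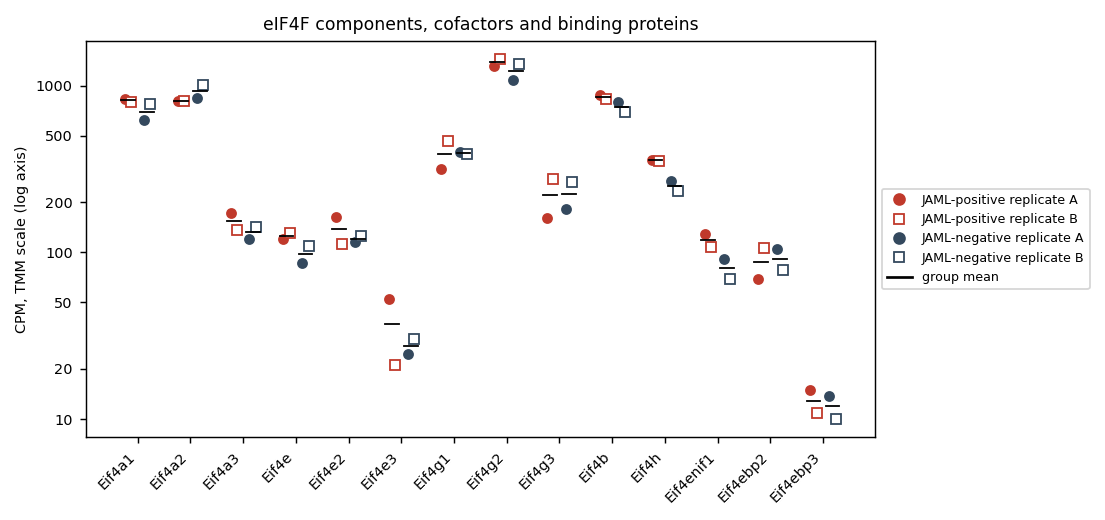
Level of the eIF4F component, cofactor and binding protein genes in each library (vertical axis, CPM on a log scale), drawn as in the plot of the eIF2 genes, with JAML-positive libraries to the left of JAML-negative ones. Eif4a1, Eif4b, Eif4e, Eif4h and Eif4enif1 are separated upwards in JAML-positive libraries and Eif4a2 downwards, while the scaffold genes overlap. Eif4ebp1, with 0 counts in a library, is not drawn.

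The cap-binding proteins and their partners mostly overlapped between groups. Eif4e, the main cap-binding protein, was at 120.3 and 131 CPM in JAML-positive and 85.8 and 109.6 CPM in JAML-negative libraries (log2 fold change 0.36, SE 0.29, edgeR adjusted p = 0.777). Eif4e2, a relative that takes part in repression of bound messages, was at 162 and 112.5 CPM in JAML-positive and 116 and 126 CPM in JAML-negative libraries (0.18, SE 0.29). Eif4e3 was at 52.8 and 21 CPM in JAML-positive and 24.4 and 30.3 CPM in JAML-negative libraries (0.40, SE 0.56). JAML-positive replicate A was the high library for both, and without it the log2 fold change was -0.09 for Eif4e2 and -0.37 for Eif4e3. Eif4enif1, which encodes 4E-T, the nuclear import factor of eIF4E, was at 129 and 107 CPM in JAML-positive and 91.2 and 69.0 CPM in JAML-negative libraries (0.55, SE 0.31, edgeR adjusted p = 0.631).

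The scaffold genes Eif4g1, Eif4g2 and Eif4g3 had overlapping groups. Eif4g2, which encodes the scaffold DAP5, which lacks the binding site for eIF4E, was the most abundant in CPM, at 1309.7 and 1447 CPM in JAML-positive and 1075.5 and 1354 CPM in JAML-negative libraries (0.18, SE 0.20). Eif4g1 was at 317.5 and 462 CPM in JAML-positive and 401 and 386 CPM in JAML-negative libraries (-0.01, SE 0.23). Eif4g3 was at 161 and 277 CPM in JAML-positive and 181 and 264 CPM in JAML-negative libraries (-0.01, SE 0.29), low in both replicates A and high in both replicates B.

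Among the eIF4E-binding proteins, Eif4ebp2 was the most abundant in CPM but not per kilobase, at 15.5 CPM per kilobase against 16.7 for Eif4ebp3. Eif4ebp2 was at 69.4 and 107 CPM in JAML-positive and 105 and 78.3 CPM in JAML-negative libraries (-0.05, SE 0.34). Eif4ebp3 was at 15.0 and 10.8 CPM in JAML-positive and 13.8 and 10 CPM in JAML-negative libraries, with 65.5% of its transcript shared with another annotated gene. Eif4ebp1, which encodes 4E-BP1, the mTOR substrate, was counted 202 and 0 times in JAML-positive libraries, against 146 and 141 times in JAML-negative libraries. The JAML-positive replicates thus disagreed about this gene more than the groups did, and its fitted log2 fold change of -0.55 carried an SE of 1.44. A count of 0 in JAML-positive replicate B allows up to 3 counts or 0.0959 CPM by counting error alone. Such a pattern was not particular to Eif4ebp1, since 404 of the tested genes had 0 counts in a single library and at least 100 in each of the other 3, of which 81 had it in JAML-positive replicate B.

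Among the 14 genes of eIF3, the large scaffold on the small ribosomal subunit, values were higher in JAML-positive cells for 10 and lower for 4. None of the 14 passed, and the median log2 fold change was 0.22, which was -0.04 without JAML-positive replicate A and -0.03 with length and GC trends removed. Both JAML-positive values exceeded both JAML-negative values for 1 gene, Eif3c (7.14%), and were below both for 2, Eif3f and Eif3j1 (14.3%), with overlap for the other 11. Both shares were under those of all tested genes, 20.3% above and 18.2% below.

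Eif3a, the largest subunit, was at 699 and 792 CPM in JAML-positive and 784 and 829 CPM in JAML-negative libraries (log2 fold change -0.11, SE 0.20, edgeR adjusted p = 0.912). Eif3e was at 581 and 514 CPM in JAML-positive and 548 and 451 CPM in JAML-negative libraries (0.13, SE 0.21, edgeR adjusted p = 0.903). In both genes replicates A and B of a group differed by about as much as the groups or more. Of the remaining subunit genes, leaving aside Eif3j1 and Eif3j2, log2 fold changes lay between -0.10 for Eif3f and 0.38 for Eif3g. Eif3g, chosen after its values were seen, was at 151 and 121 CPM in JAML-positive and 153 and 54.3 CPM in JAML-negative libraries, with JAML-negative replicate B alone low. Per kilobase these subunit genes spanned 83.9 CPM for Eif3d to 351 CPM for Eif3h.

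The loosely bound subunit eIF3j is encoded in mice by Eif3j1 and its near-identical copy Eif3j2, and reads could be split between them. Eif3j1 was at 47.7 and 71.1 CPM in JAML-positive and 86.4 and 107.5 CPM in JAML-negative libraries (log2 fold change -0.69, SE 0.35, edgeR adjusted p = 0.609). Eif3j2 was counted 624 and 21 times in JAML-positive libraries, against 20 and 57 times in JAML-negative libraries, so its high value belonged to 1 library. Windows of 50 nucleotides shared with Eif3j1 made up 90.8% of the Eif3j2 transcript.

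Summed over both copies the level was 71.3 and 71.8 CPM in JAML-positive and 87.1 and 109.6 CPM in JAML-negative libraries. The JAML-positive replicates, which were far apart for each copy, were nearly equal in the sum, and both stayed below the JAML-negative ones. Taken alone, Eif3j2 had a log2 fold change of 3.03 (SE 1.62, edgeR adjusted p = 0.615), which turned to -1.03 when JAML-positive replicate A was left out. In 48 of the tested genes the highest library was at least 10 times the next, and it was JAML-positive replicate A for 21 of them.

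The 5 genes of eIF1 and eIF1A, factors of start site selection, had a median log2 fold change of -0.03, with JAML-positive values above for 2, below for 1 and overlapping for 2, where 20.3% of all tested genes were above and 18.2% below. Eif1 was at 767.5 and 725 CPM in JAML-positive and 616 and 906 CPM in JAML-negative libraries (log2 fold change -0.03, SE 0.22), with both JAML-positive libraries inside the JAML-negative range. Its copy Eif1b was at 23.6 and 30.7 CPM in JAML-positive and 22.9 and 23.6 CPM in JAML-negative libraries, so its nearest libraries differed by less than the digits given (0.24, SE 0.55). Eif1ax, which encodes eIF1A from the X chromosome, was at 78.4 and 76.8 CPM in JAML-positive and 89.4 and 159 CPM in JAML-negative libraries (-0.68, SE 0.34, edgeR adjusted p = 0.609). That difference came mainly from JAML-negative replicate B, without which the log2 fold change was -0.20.

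Eif1a, the other eIF1A gene of mice, had overlapping groups (-0.12, SE 0.36). The ratio of Eif1a to Eif1ax counts, formed after the values were seen, was 1.21 and 1.07 in JAML-positive and 0.742 and 0.790 in JAML-negative libraries. Eif1ad, an eIF1A-like gene also named after its values were seen, was at 66.1 and 73.4 CPM in JAML-positive and 43.3 and 50.4 CPM in JAML-negative libraries (0.58, SE 0.37, edgeR adjusted p = 0.697).

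The 4 genes numbered eIF5 act at different steps, apart from the copies Eif5a and Eif5a2. The 4 genes were split, 2 on each side and none with overlapping groups, where 38.5% of all tested genes did not overlap. Eif5a (chromosome 11, 69916712 to 69921958), whose product carries the modified residue hypusine, was at 754 and 531 CPM in JAML-positive and 337.5 and 495.5 CPM in JAML-negative libraries. The nearest libraries of the groups were close to each other, while the replicates within each group lay far apart. The mean was 642 ± 158 CPM in JAML-positive and 416.5 ± 112 CPM in JAML-negative cells (SD, n = 2 each), a log2 fold change of 0.62 (SE 0.25, 95% interval 0.08 to 1.17, edgeR adjusted p = 0.609, DESeq2 adjusted p = 0.152). It was 0.36 without JAML-positive replicate A, 0.37 without JAML-negative replicate A and 0.42 with length and GC trends removed.

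Its scarcer copy Eif5a2 was at 21.8 and 16.4 CPM in JAML-positive and 26.4 and 24.1 CPM in JAML-negative libraries (-0.42, SE 0.59). The ratio of Eif5a to Eif5a2 counts was 34.5 and 32.3 in JAML-positive and 12.8 and 20.5 in JAML-negative libraries. Eif5, the activator that makes eIF2 hydrolyse its GTP at the start codon, was at 470.0 and 404 CPM in JAML-positive and 542.5 and 533.5 CPM in JAML-negative libraries (-0.30, SE 0.20, edgeR adjusted p = 0.716). Eif5b, the factor of subunit joining, was at 245 and 264 CPM in JAML-positive and 233 and 221 CPM in JAML-negative libraries (0.17, SE 0.22). Eif6, which keeps the large subunit from joining too early, was at 59.7 and 31.8 CPM in JAML-positive and 78.4 and 33.5 CPM in JAML-negative libraries, with both replicates A high and both replicates B low (-0.32, SE 0.49).

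**Figure D4:**
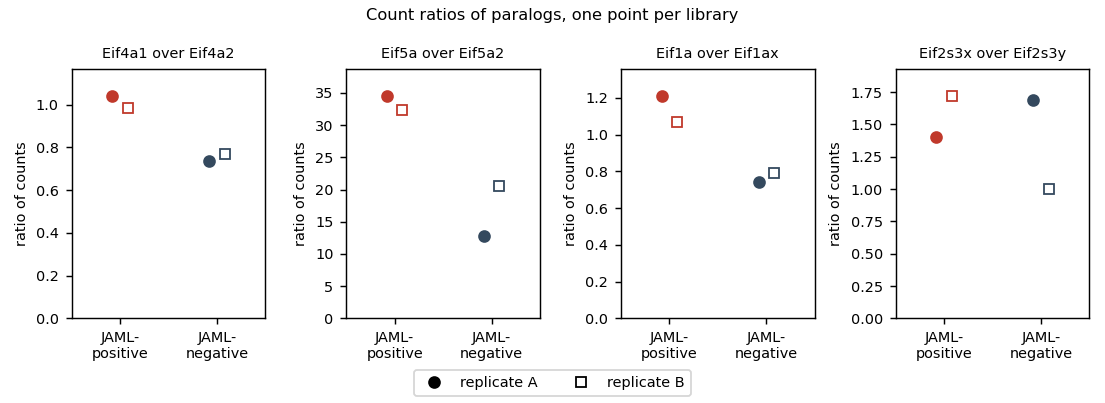
Ratio of counts between paralogous initiation factor genes in each library (vertical axes start at 0), with JAML-positive libraries left and JAML-negative libraries right, filled circles for replicate A and open squares for replicate B. The ratios Eif4a1 to Eif4a2, Eif5a to Eif5a2 and Eif1a to Eif1ax are higher in both JAML-positive libraries, and Eif2s3x to Eif2s3y overlaps. All other ratios formed overlap too and are not drawn. These are Eif1 to Eif1b, Eif4a1 to Eif4a3, Eif4e to Eif4e2 and to Eif4e3, and Eif4g1 to Eif4g2 and to Eif4g3. The rest are Eif4ebp1 to Eif4ebp2, Eif4ebp2 to Eif4ebp3, and Eif3j1 to Eif3j2. The plot thus shows every ratio that separates. With libraries in random order, 2 against 2, a ratio separates in either direction with probability 0.333. Of all tested genes 38.5% have groups that do not overlap.

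Genes of later translation steps, from a list of elongation and termination factors, were 7 higher and 3 lower of 10, with 0 past the threshold in either direction and a median log2 fold change of 0.20, which was -0.08 without JAML-positive replicate A. Eef1a1, the carrier of aminoacyl transfer RNA, was at 21138 and 16593 CPM in JAML-positive and 17070.1 and 17887 CPM in JAML-negative libraries, so only JAML-positive replicate A was high. Gspt1, which encodes the release factor eRF3a, was at 204 and 261.5 CPM in JAML-positive and 141 and 183 CPM in JAML-negative libraries (0.53, SE 0.26). Regulators of initiation with other names were 8 higher and 8 lower of 16, 0 past the threshold in either direction, with a median of 0.00. In that list both JAML-positive libraries lay below both JAML-negative libraries for 4 genes (25%), against 18.2% of all tested genes. They lay above for 0 genes, against 20.3% of all tested genes. Among the 4 were Gcn1 (log2 fold change -0.47, SE 0.31) and Mknk2 (-0.15, SE 0.21). Another was Pdcd4, an inhibitor of eIF4A, at 481 and 472 CPM in JAML-positive and 587 and 701 CPM in JAML-negative libraries. The log2 fold change of Pdcd4 was -0.44 (SE 0.20, edgeR adjusted p = 0.609, DESeq2 adjusted p = 0.0467). The same order held for Impact, an inhibitor of GCN2 activation, at 42.3 and 46.3 CPM in JAML-positive and 63.8 and 78.4 CPM in JAML-negative libraries (-0.68, SE 0.38).

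The ribosomal protein genes were higher in 84 of 87 cases with a median log2 fold change of 0.29, but both JAML-positive values exceeded both JAML-negative values for 7 of them (8.05%), fewer than the 20.3% of all tested genes. Their median was -0.17 without JAML-positive replicate A. For the initiation factors that median was 0.01, and for the subunits of eIF2B it was 0.78 without that library against 0.82 with it.

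**Figure D5:**
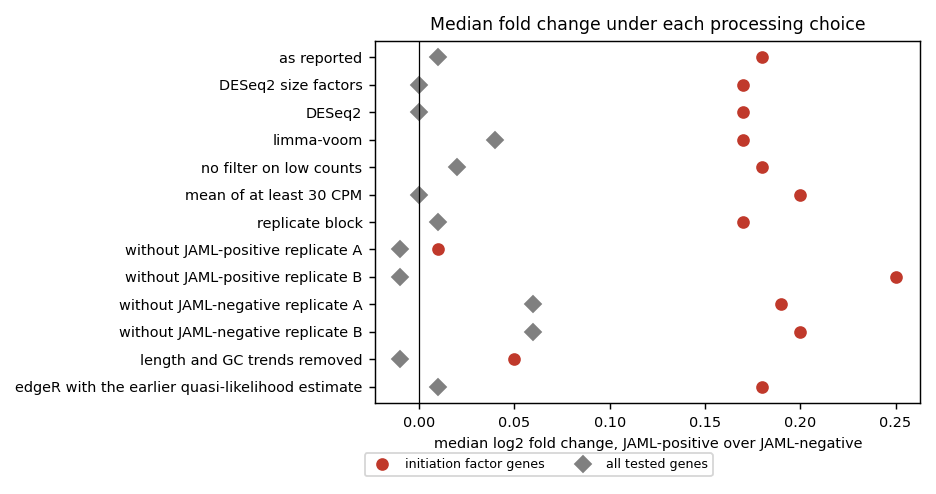
Median log2 fold change (horizontal axis, JAML-positive over JAML-negative) of the initiation factor genes (red circles) and of all tested genes (grey diamonds) under each processing choice. The family's median is 0.17 to 0.25 in the other rows, and it is 0.01 without JAML-positive replicate A and 0.05 with length and GC trends removed.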

How the data were processed

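The authors deposited raw read counts per gene for 4 libraries in a table for the whole series, 1 column a library. Per the submitters' processing notes the genome was GRCm38 (mm10). How reads were aligned and counted, with or without strand and with what annotation, is not given in the sources used here. Per the labels' protocols a SMARTER kit for mRNA was used on total RNA. Depth was 27530187 to 30569728 counts a library.

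Counts were tested with edgeR 4.0.16 in R 4.3.3 on the 11563 genes kept by filterByExpr (minimum count 10), with TMM factors, robust quasi-likelihood dispersions and no covariate, and p-values were adjusted by Benjamini-Hochberg over all tested genes at 0.05. An SE is the size of the log2 fold change over the root of F, and 95% intervals use it with a t quantile. DESeq2 1.42.0 and limma-voom (limma 3.58.1) were alternatives, as were other scalings and filters, a replicate block and each library left out. Removal of loess trends (span 0.5) in length and GC content, and edgeR's earlier quasi-likelihood estimate, were added after the data were seen. The fitting code was run on simulated data with the same dispersion for all genes and with changes larger than most in the family. That run checks the code and does not measure what could be called in these data. Transcript lengths are those of the longest coding transcript of GENCODE M21. Shared sequence is the percentage of 50-nucleotide windows of that transcript found in another annotated gene on either strand, so it covers copies and overlapping genes alike, and counts are uncertain for the 11 genes with at least 20% (Eif1, Eif2s2, Eif2s3x, Eif3e, Eif3h, Eif3j1, Eif3j2, Eif3m, Eif4a1, Eif4a3 and Eif4ebp3). Coordinates and upstream sequences are from RefSeq on GRCm38.p6.

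The members, the lists and the rule for named genes were chosen with earlier results of these data known. The rule took 14 genes standing for their factors, paralog sets, the 10 genes with the smallest p and genes with a library of at most 3 counts, 32 in all. Floors and counting errors cover counting only, since reads carry no molecular identifiers. One marker list is not reported here.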

Additional observations from a re-analysis of the deposited data

How the results depend on the processing

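Across 12 other settings, 0 initiation factor genes were called in all but DESeq2. It called 3 (Eif2b2, Eif2b5 and Eif4h) at an adjusted p under 0.05, where 885 of all tested genes (7.65%) passed. DESeq2 placed 12 of the family at an unadjusted p under 0.05. All tested genes were not counted at that level, so the 12 cannot be called more or fewer than the background. Over all tested genes edgeR called 0, 2 with no filter on low counts and 2 with a mean of at least 30 CPM, and 0 with each library left out. With the replicate block 4 initiation factor genes had an unadjusted p under 0.05 and 0 passed, so it changed no call of the family. The share of all tested genes at that unadjusted level was 7.65% without the block and was not counted with it. The letters A and B were not taken to pair the libraries, since no label says that they do and the deviations of libraries with the same letter had a correlation of 0.0176 across 11563 genes. With a library left out the family's median log2 fold change was 0.01 to 0.25. The lowest was without JAML-positive replicate A, and it was 0.05 with length and GC trends removed. The cause was not tested.

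Of the 32 named genes 18 kept their sign at every setting, Eif2b2, Eif2b5, Eif4h and Eif5a among them. The genes given here as examples were those with an unadjusted p under 0.05 in the same libraries, so their kept sign adds no separate support. The share of all tested genes that kept their sign was not counted. The signs of 6 genes turned with length and GC trends removed, giving Eif1b -0.03, Eif3e -0.09, Eif4ebp2 0.07, Eif4ebp3 -0.27, Eif4g1 0.14 and Eif4g3 0.16. With a mean of at least 30 CPM Eif2s3y was at 0.01. Leaving out a library gave log2 fold changes of -0.28 to 0.28 for Eif1, -0.01 to 0.52 for Eif2s3x, -0.11 to 0.12 for Eif2s3y, -1.03 to 4.09 for Eif3j2, -0.09 to 0.43 for Eif4e2 and -0.37 to 0.95 for Eif4e3. It gave -0.40 to 0.22 for Eif4ebp2, -0.14 to 0.35 for Eif4ebp3, -0.31 to 0.24 for Eif4g1, -0.46 to 0.32 for Eif4g3 and -0.81 to 0.44 for Eif6. For Eif4ebp1 it gave -10.22 to 0.57, where the lower value sets a library with 0 counts alone against the others and depends on the prior count. A lone library is assumed to vary like the other group. With 2 libraries a group the median SE in the family was 0.30 on the log2 scale, which limits what could be called.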
